A study of Mus musculus with 9 samples.

Results

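The BCL2 family decides at the mitochondrial outer membrane whether a cell survives or dies by apoptosis, and the levels of 10 of its genes were examined in blood stem and progenitor cells. All probe sets whose annotation named exactly 1 of Bcl2, Bcl2l1, Mcl1, Bcl2l11, Bax, Bak1, Bad, Bid, Bbc3 and Pmaip1 were taken. This gave 29 probe sets for 9 genes, of 45101 on the array, and 27 of the 29 were bright enough to be tested. Bax was not analysed here, because no probe set was named for it alone. The cells were LSK cells of the bone marrow (Lin-Sca1+cKit+), a sort gate that takes in hematopoietic stem cells and multipotent progenitors.

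All groups came from C57BL/6 mice whose marrow had been destroyed by irradiation and replaced by transplanted cells, and all were sorted 8 weeks after the transplant. In the dnMPL groups the donor cells had been transduced with a retroviral vector for dnMPL, and GFP marked cells that carried the transgene. The group dnMPL GFP pos held GFP-positive LSK cells of these mice, the group dnMPL GFP neg held GFP-negative LSK cells of mice given the same kind of graft, and the control group held LSK cells of mice given wild-type LSK cells. There were 3 arrays per group, and the marrow of 2 to 5 mice was pooled for each. The labels list a transduction step for all samples but name no vector for the control cells, and they do not say whether GFP-positive and GFP-negative samples came from the same mice. A vector's own effect and that of dnMPL can therefore not be told apart, the 6 dnMPL arrays may not be independent, and p-values measure only the spread between these samples, which nothing says came from separate mice.

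The family holds proteins of opposing roles. BCL2, BCL-XL (from Bcl2l1) and MCL1 hold cell death in check, BAX and BAK (from Bak1) form the pores that release cytochrome c, and the BH3-only proteins BIM (Bcl2l11), PUMA (Bbc3), NOXA (Pmaip1), BID and BAD relay stress and the loss of growth factors. Mouse hematopoietic stem cells need MCL1 to survive. Cytokines that sustain these cells signal through JAK2, STAT5 and the PI3K-AKT route, and AKT keeps FOXO transcription factors, which can switch on Bcl2l11 and Bbc3, out of the nucleus.

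The start regions of Mcl1, Bcl2l11 and Bbc3 are shown because Mcl1 is the gene on which the measurements below turn, and because the other two, both of them FOXO targets, held the letters of a FOXO site. Each runs from 250 bases before to 50 bases after an annotated transcript start (RefSeq, GRCm38.p6), with the FOXO motif TGTTTAC in capitals on whichever strand it was found.
Mcl1, chr3:95658471-95658770, plus strand: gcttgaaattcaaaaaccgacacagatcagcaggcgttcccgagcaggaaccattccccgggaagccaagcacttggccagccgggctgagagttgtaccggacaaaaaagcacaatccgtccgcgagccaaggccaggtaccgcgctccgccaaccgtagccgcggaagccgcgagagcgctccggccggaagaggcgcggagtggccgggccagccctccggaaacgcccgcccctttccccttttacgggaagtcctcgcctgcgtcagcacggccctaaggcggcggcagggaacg
Bcl2l11, chr2:128125788-128126087, plus strand: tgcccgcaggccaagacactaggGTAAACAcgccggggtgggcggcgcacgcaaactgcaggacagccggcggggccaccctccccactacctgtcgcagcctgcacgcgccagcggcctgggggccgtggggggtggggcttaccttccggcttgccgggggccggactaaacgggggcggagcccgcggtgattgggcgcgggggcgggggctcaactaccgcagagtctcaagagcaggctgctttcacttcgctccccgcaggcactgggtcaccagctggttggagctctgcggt
Bbc3, chr7:16310011-16310310, plus strand: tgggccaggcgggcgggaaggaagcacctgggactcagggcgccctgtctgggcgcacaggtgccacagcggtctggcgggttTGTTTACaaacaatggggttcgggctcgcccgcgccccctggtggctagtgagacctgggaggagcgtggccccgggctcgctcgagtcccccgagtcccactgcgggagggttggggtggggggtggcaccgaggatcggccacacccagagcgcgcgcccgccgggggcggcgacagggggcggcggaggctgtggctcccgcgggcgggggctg

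In the Bcl2l11 window the motif lay on the opposite strand (first base 227 bases before the start), and in the Bbc3 window it lay on the gene's strand, 167 bases before the start. The table holds 15 start regions for 9 of the member genes, Bax included. Both strands were searched for TTCNNNGAA (STAT), TGTTTAC (FOXO), TGACGTCA (CRE) and the core of a p53 element (CATG and CATG, 6 bases apart). FOXO letters were in 2 of the 15 regions and in 3.65% of all 32851 regions of the same length. The others were in none of the 15, against 8.30% (STAT), 1.79% (CRE) and 0.712% (p53 element core) of all regions. The 15 regions include several starts of 1 gene, some of which overlap, and a match to letters is not a measured binding site.

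Levels are given as log2 RMA values, where 1 unit is a 2-fold change, and a difference is a log2 fold change with the SE of the limma fit. Levels of different probe sets cannot be set against each other. The 9 medians ranged from 4.52 to 4.64 and the pairwise correlations of arrays from 0.886 to 0.970. Control 3 and dnMPL GFP pos 2 stood apart: limma's array weight was 0.400 for dnMPL GFP pos 2 and 0.383 for control 3, while no other array was under 0.927. The gap between 3′ and 5′ Gapdh control probe sets, which widens where transcripts are incomplete, was 3.22 on dnMPL GFP pos 2 and 3.87 on control 3, against 2.47 to 2.89 elsewhere. Among the 27 tested member probe sets, control 3 had the highest value of the 9 arrays in 9 and the lowest in 5, that is in 33.3% and 18.5%, against 16.8% and 18.5% of all tested probe sets. Values that control 3, or another single array, moved strongly are also given without that array, and all joint differences were recomputed with each array left out in turn.

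No member passed the test in any comparison. In 27022 tested probe sets limma called 0 at an adjusted p under 0.05 in each of the 4 comparisons (0% of the background in each). In dnMPL GFP pos against control, the smallest adjusted p of a member was 0.828 (limma), and 1 of the 27 members, Bid 1448560_at, had an unadjusted p under 0.05, as did 1588 probe sets in all (5.88%). In dnMPL GFP neg against control the smallest was 0.892, and 1 member, Mcl1 1456381_x_at, was under 0.05 unadjusted, as were 1434 in all (5.31%). Between dnMPL GFP pos and dnMPL GFP neg no member was, against 733 in all (2.71%), and the smallest adjusted p of a member was 1.00. For both dnMPL fractions jointly against control the smallest was 0.688, and 4 members were under 0.05 unadjusted, against 1797 in all (6.65%). These were 3 Mcl1 probe sets and Bid 1448560_at.

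With their signs kept, the differences of the 27 probe sets centred on 0. Their median difference was 0.031 in dnMPL GFP pos and -0.027 in dnMPL GFP neg cells against control, beside -0.016 and -0.0098 over all tested probe sets. For both fractions jointly it was -0.035, beside -0.013 over all, with 13 of the 27 point estimates above 0. Regardless of sign, the median joint difference was 0.37, beside 0.27 over all tested probe sets. In dnMPL GFP pos and dnMPL GFP neg cells against control it was 0.33 and 0.29, beside 0.30 and 0.31. Between the fractions it was 0.22, beside 0.27.

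**Figure D1:**
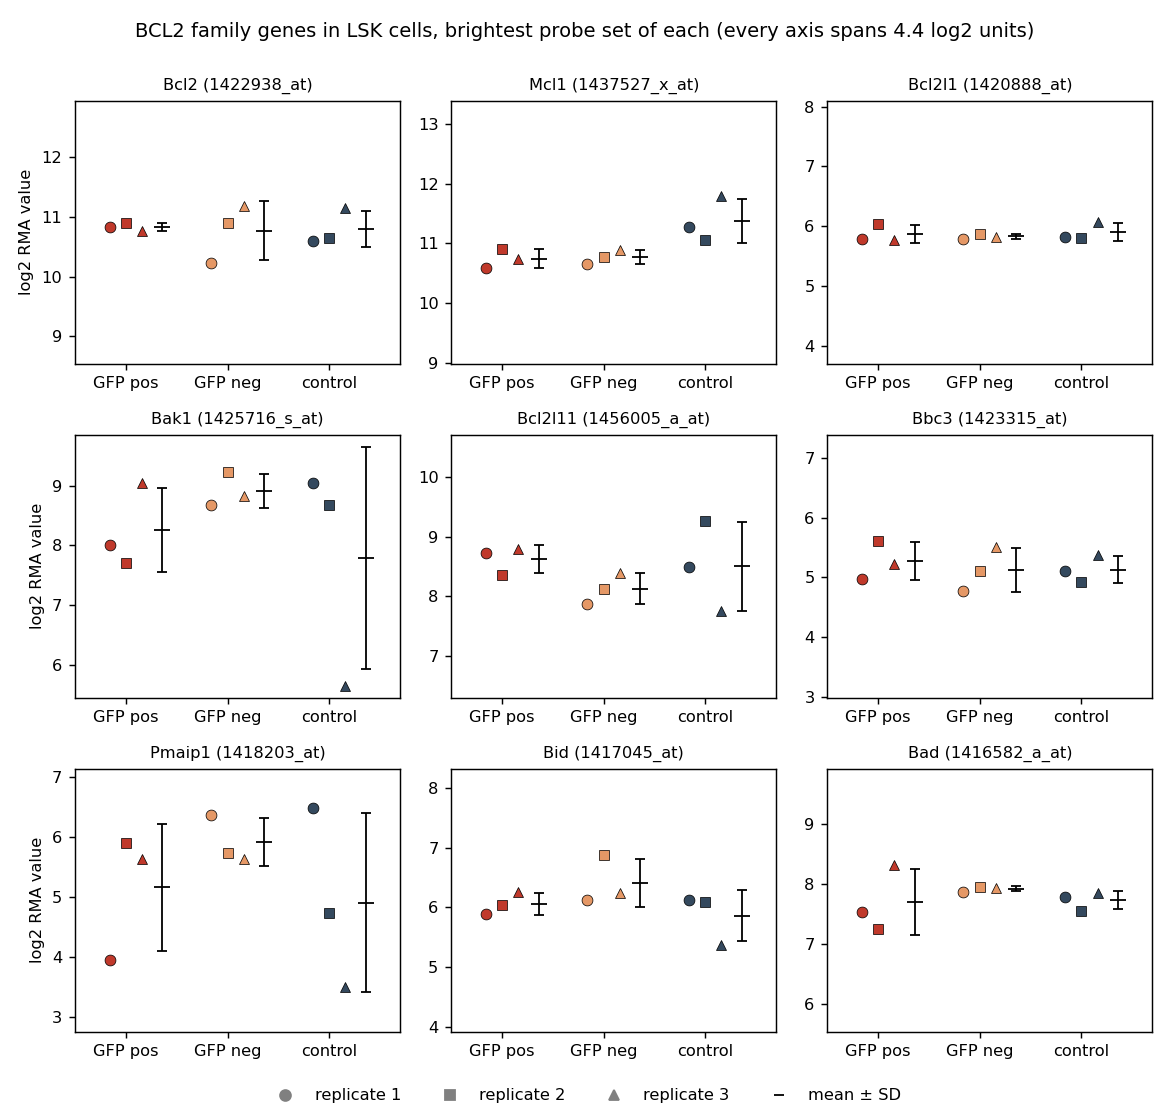
Log2 RMA values (vertical axis) of the brightest probe set of each of the 9 measured BCL2 family genes on the 3 arrays of the groups dnMPL GFP pos, dnMPL GFP neg and control. Symbols are arrays, and dashes with bars are means ± SD (n = 3). The Mcl1 values of all 6 dnMPL arrays lie below the 3 controls, and the Bak1 mean of the controls is set by control 3 at 5.65.

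Of the survival genes, Mcl1 alone had probe sets with all 6 dnMPL arrays on the same side of all controls. MCL1 is a short-lived protein whose supply depends on continued transcription, and its transcript was read by 6 probe sets. The brightest, 1437527_x_at, stood at 10.58, 10.90 and 10.74 in dnMPL GFP pos cells, at 10.65, 10.77 and 10.89 in dnMPL GFP neg cells and at 11.28, 11.06 and 11.79 in control cells. Every dnMPL array was below every control array, and the dnMPL groups lay over each other. Its difference was -0.64 ± 0.28 (SE) in dnMPL GFP pos and -0.61 ± 0.28 in dnMPL GFP neg cells against control, and -0.62 ± 0.25 for both fractions jointly (n = 3 each; limma adjusted p = 0.845, 0.913 and 0.713). The joint estimate is a level 0.650 times that of controls, with a 95% interval of 0.443 to 0.954 that takes no account of the many probe sets tested.

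The second Mcl1 probe set, 1456243_x_at, stood at 10.31, 10.65 and 10.42 in dnMPL GFP pos cells, 10.31, 10.33 and 10.57 in dnMPL GFP neg cells and 10.93, 10.74 and 11.46 in control cells. The third, 1456381_x_at, stood at 9.68, 10.15 and 9.99 in dnMPL GFP pos cells, 9.69, 9.77 and 9.72 in dnMPL GFP neg cells and 10.42, 10.23 and 10.79 in control cells. Both again kept all 6 dnMPL arrays below the 3 controls. Their joint differences were -0.61 ± 0.25 and -0.65 ± 0.24 (limma adjusted p = 0.713 and 0.688). An exact two-sided permutation test over the 84 splits of 6 against 3 arrays gave p = 0.0238 for each of the 3 probe sets, the smallest that test can give, and 0.709 after adjustment over all 27022 probe sets. Any probe set with all 6 dnMPL arrays below the 3 controls gets this p, so it restates that separation and adds nothing to it. In 3 against 3 arrays that exact test cannot go below 0.1. All 3 carry the suffix x_at, which marks probe sets with probes that can also bind other transcripts, and the annotation gives no accession for them, so they may share probes and are not separate measurements of Mcl1.

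The other 3 Mcl1 probe sets overlapped between the dnMPL arrays and the controls. Probe set 1416880_at stood at 9.34, 9.23 and 9.48 in dnMPL GFP pos cells, 9.08, 9.47 and 9.36 in dnMPL GFP neg cells and 9.42, 9.54 and 10.28 in control cells, with the highest value on control 3. Probe set 1416881_at was at 9.40, 8.47 and 9.02 in dnMPL GFP pos cells, 9.05, 8.30 and 8.82 in dnMPL GFP neg cells and 9.21, 8.88 and 10.54 in control cells. Here too control 3 stood above all other arrays. Probe set 1448503_at had 9.58, 9.23 and 9.25 in dnMPL GFP pos cells, 9.25, 9.15 and 8.98 in dnMPL GFP neg cells and 9.55, 9.25 and 9.25 in control cells. The joint difference of this last set was -0.11 ± 0.22, which places the level between 0.653 and 1.31 times that of controls. Its interval and those of the x_at sets overlap, but all were read on the same arrays. Whether the probe sets differ from each other was not tested. Without control 1 that difference was -0.013.

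Without control 3 the joint differences of the 3 x_at sets were -0.41, -0.41 and -0.49 (unadjusted p = 0.124, 0.134 and 0.0793, limma), and those of 1416880_at and 1416881_at were -0.15 and -0.20, against -0.42 and -0.70 with it. The difference in dnMPL GFP neg cells was then -0.40 for 1437527_x_at, and that in dnMPL GFP pos cells -0.38 for 1456243_x_at. The point estimates of all 6 Mcl1 probe sets were below control for the joint comparison, with all arrays and with any 1 array left out. Between the fractions, dnMPL GFP pos minus dnMPL GFP neg was -0.030 ± 0.28 for 1437527_x_at, with a 95% interval of 0.629 to 1.52 times.

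**Figure D2:**
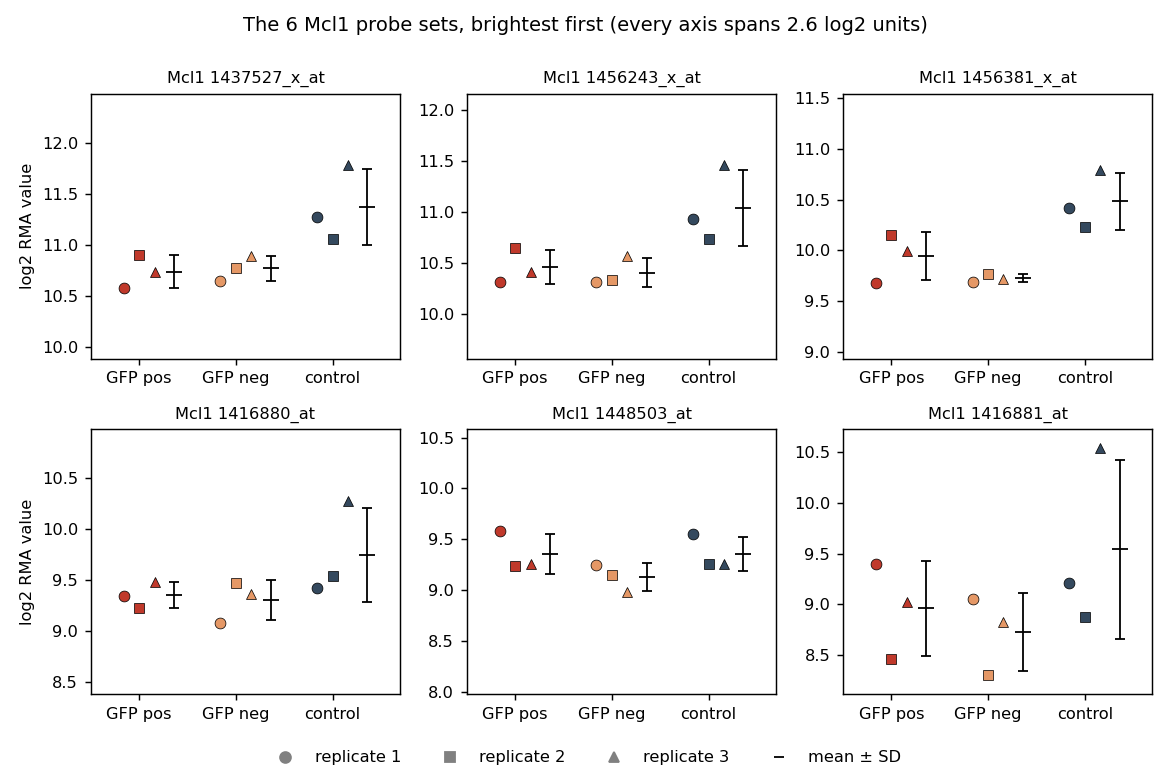
Log2 RMA values (vertical axis) of the 6 Mcl1 probe sets on the 3 arrays of dnMPL GFP pos, dnMPL GFP neg and control, with means ± SD (n = 3). In the 3 x_at probe sets all dnMPL arrays lie below all controls, while in 1448503_at the dnMPL GFP pos and control means are both 9.35.

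Separation of all arrays can be set against the whole array. On all 6 dnMPL arrays, 1.85% of the tested probe sets lay lower than on every control, 1.51% lay higher, and 3.36% did either. The members had 3 of 27, the Mcl1 x_at sets, and none was separated upwards. In dnMPL GFP pos cells 5 members were separated from control, against 8.4% of all probe sets. Bcl2l11 1435449_at and Bid 1448560_at were higher (4.39% of all were) and the 3 Mcl1 x_at sets lower (4% of all). In dnMPL GFP neg cells 6 members were separated, against 10.8% of all. Bcl2 1443837_x_at and Bad 1416582_a_at were higher (5.13% of all), and the Mcl1 x_at sets and Mcl1 1448503_at lower (5.71% of all). The last of these differed by -0.22, and by -0.13 without control 1. No member separated dnMPL GFP pos from dnMPL GFP neg cells, against 6.47% of all probe sets. The comparisons with control share the control arrays, and probe sets of 1 gene share a target, so these counts are not independent of each other.

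Other features of the cells moved with the same groups. RNA of cells that are fewer and RNA that is lower per cell cannot be told apart in such pooled samples. The mean log2 level of the 13 measured of 16 granulocyte markers lay between 9.82 and 10.93 in dnMPL GFP pos, 9.14 and 10.56 in dnMPL GFP neg and 6.65 and 8.99 in control cells. All 13 had joint point estimates above 0. For 11 of 15 erythroid markers the mean lay between 6.95 and 7.31 in dnMPL GFP pos, 6.80 and 7.06 in dnMPL GFP neg and 5.63 and 5.88 in control cells. For 13 of 15 LSK and stem cell markers it lay between 7.15 and 7.50 in dnMPL GFP pos, 7.40 and 7.66 in dnMPL GFP neg and 8.10 and 8.33 in control cells, so this list alone was lower on every dnMPL array. Monocyte and macrophage markers (11 of 13) lay between 5.33 and 6.65 in dnMPL GFP pos, 5.51 and 6.52 in dnMPL GFP neg and 4.82 and 5.20 in control cells. B cell markers (10 of 11) lay between 6.31 and 6.97 in dnMPL GFP pos, 5.33 and 6.40 in dnMPL GFP neg and 4.31 and 5.86 in control cells. List means take in markers below the brightness filter. For B cells these include Ms4a1 (values below), so part of the gap between dnMPL GFP pos and control rested on that gene. The B cell mean was not computed without it. T and NK cell markers (10 of 12) lay between 4.23 and 4.75 in dnMPL GFP pos, 4.38 and 4.45 in dnMPL GFP neg and 4.09 and 4.26 in control cells. Unlike the granulocyte markers, the genes of these other lists did not all move 1 way. Over all 12398 tested genes, 46.4% of the joint point estimates were above 0. Jointly, 8 of 11 tested erythroid markers and 5 of 8 monocyte and macrophage markers had point estimates above 0. So did 8 of 9 B cell markers and 4 of 6 T and NK cell markers. Of the 12 tested LSK and stem cell markers, 9 were below 0 and 3 above. By their mean over all arrays, 9 markers lay below the brightness filter, among them Cd3e, Cd3g and Ncr1 (T and NK cells) and Adgre1 (macrophages). Ms4a1 (B cells) was also among the 9, but stood at 6.28, 6.38 and 5.93 in dnMPL GFP pos cells, 3.63, 3.98 and 1.56 in dnMPL GFP neg cells and 1.35, 1.36 and 3.81 in control cells, so all dnMPL GFP pos arrays were above all others. Ms4a1 was picked after values were seen and lay outside the tested probe sets. Of those, 4.39% were higher on every dnMPL GFP pos than on every control array. That is a looser condition, since it leaves the dnMPL GFP neg arrays out. The 9 tested B cell markers did not share this pattern: between the fractions 5 were higher and 4 lower in dnMPL GFP pos cells. Ly6a, which encodes Sca1, was not analysed here. Kit, the other gate gene, was at 8.17, 6.38 and 8.17 in dnMPL GFP pos, 8.02, 8.22 and 7.92 in dnMPL GFP neg and 8.73, 8.67 and 8.08 in control cells. The part of these shifts in the Mcl1 values was not tested.

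Bcl2, the founding survival gene of the family, was read by 5 probe sets. The brightest, 1422938_at, stood at 10.82, 10.90 and 10.76 in dnMPL GFP pos cells, 10.23, 10.91 and 11.18 in dnMPL GFP neg cells and 10.60, 10.64 and 11.15 in control cells. The groups lay over each other, and the joint difference was 0.0020 ± 0.28, an interval of 0.649 to 1.54 times the control level (-0.10 to 0.18 with each array left out in turn). Probe set 1457687_at gave the same picture, at 8.21, 8.64 and 8.93 in dnMPL GFP pos cells, 8.64, 9.06 and 8.35 in dnMPL GFP neg cells and 8.64, 8.64 and 8.55 in control cells.

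The dimmer Bcl2 probe sets disagreed with these and with each other. Probe set 1443837_x_at was at 6.62, 5.32 and 6.89 in dnMPL GFP pos cells, 6.95, 6.32 and 6.22 in dnMPL GFP neg cells and 5.44, 5.69 and 5.75 in control cells. Its dnMPL GFP neg arrays were all above the controls, while dnMPL GFP pos 2 lay below them, and the joint difference was 0.76 ± 0.37 (limma adjusted p = 0.781). Probe set 1437122_at was at 5.87, 5.72 and 5.94 in dnMPL GFP pos cells, 5.93, 5.93 and 6.10 in dnMPL GFP neg cells and 5.54, 5.46 and 7.41 in control cells. Control 3 turned its direction, since the joint difference was -0.22 ± 0.42 with that array and 0.41 without it. Probe set 1440770_at had 6.32, 8.24 and 7.22 in dnMPL GFP pos cells, 7.61, 7.02 and 7.55 in dnMPL GFP neg cells and 7.39, 5.89 and 7.05 in control cells, with overlap throughout. Its joint difference of 0.55 ± 0.47 rested on single arrays, at 0.11 without control 2 and 0.31 without dnMPL GFP pos 2.

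Bcl2l1 encodes BCL-XL, which protects red cell precursors and platelets. Its brightest probe set, 1420888_at, was nearly flat, at 5.79, 6.04 and 5.78 in dnMPL GFP pos cells, 5.79, 5.88 and 5.83 in dnMPL GFP neg cells and 5.83, 5.80 and 6.08 in control cells. The joint difference was -0.053 ± 0.21, between 0.690 and 1.35 times the control level (0.035 without control 3). Probe set 1420887_a_at, whose suffix marks probes shared by transcript variants of 1 gene, had the largest SE of the 27, at 5.26, 3.87 and 5.42 in dnMPL GFP pos cells, 4.24, 6.40 and 3.44 in dnMPL GFP neg cells and 5.08, 5.51 and 7.61 in control cells. Its joint difference was -1.29 ± 0.75 (limma adjusted p = 0.824) and -0.52 without control 3. Probe set 1426191_a_at stood at 6.42, 4.92 and 5.57 in dnMPL GFP pos cells, 5.74, 5.49 and 4.56 in dnMPL GFP neg cells and 5.88, 5.35 and 5.22 in control cells, a joint difference of -0.035 ± 0.40. The fourth, 1426050_at, at 2.46 to 3.21 over the 9 arrays, was too dim to be tested.

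Of the pore-forming effectors only Bak1 was measured. Probe set 1425716_s_at stood at 8.01, 7.71 and 9.04 in dnMPL GFP pos cells, 8.68, 9.22 and 8.83 in dnMPL GFP neg cells and 9.04, 8.68 and 5.65 in control cells. Control 3 lay more than 2 log2 units under every other array, and the joint difference was 0.79 ± 0.69 with it and -0.28 without it. The second probe set, 1418991_at, had 6.62, 6.32 and 7.73 in dnMPL GFP pos cells, 6.57, 7.57 and 7.27 in dnMPL GFP neg cells and 7.78, 7.66 and 5.77 in control cells, again lowest on control 3. Its joint difference was -0.058 ± 0.51, -0.71 without that array and 0.30 without control 1. The direction of either probe set against control thus depended on single arrays.

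**Figure D3:**
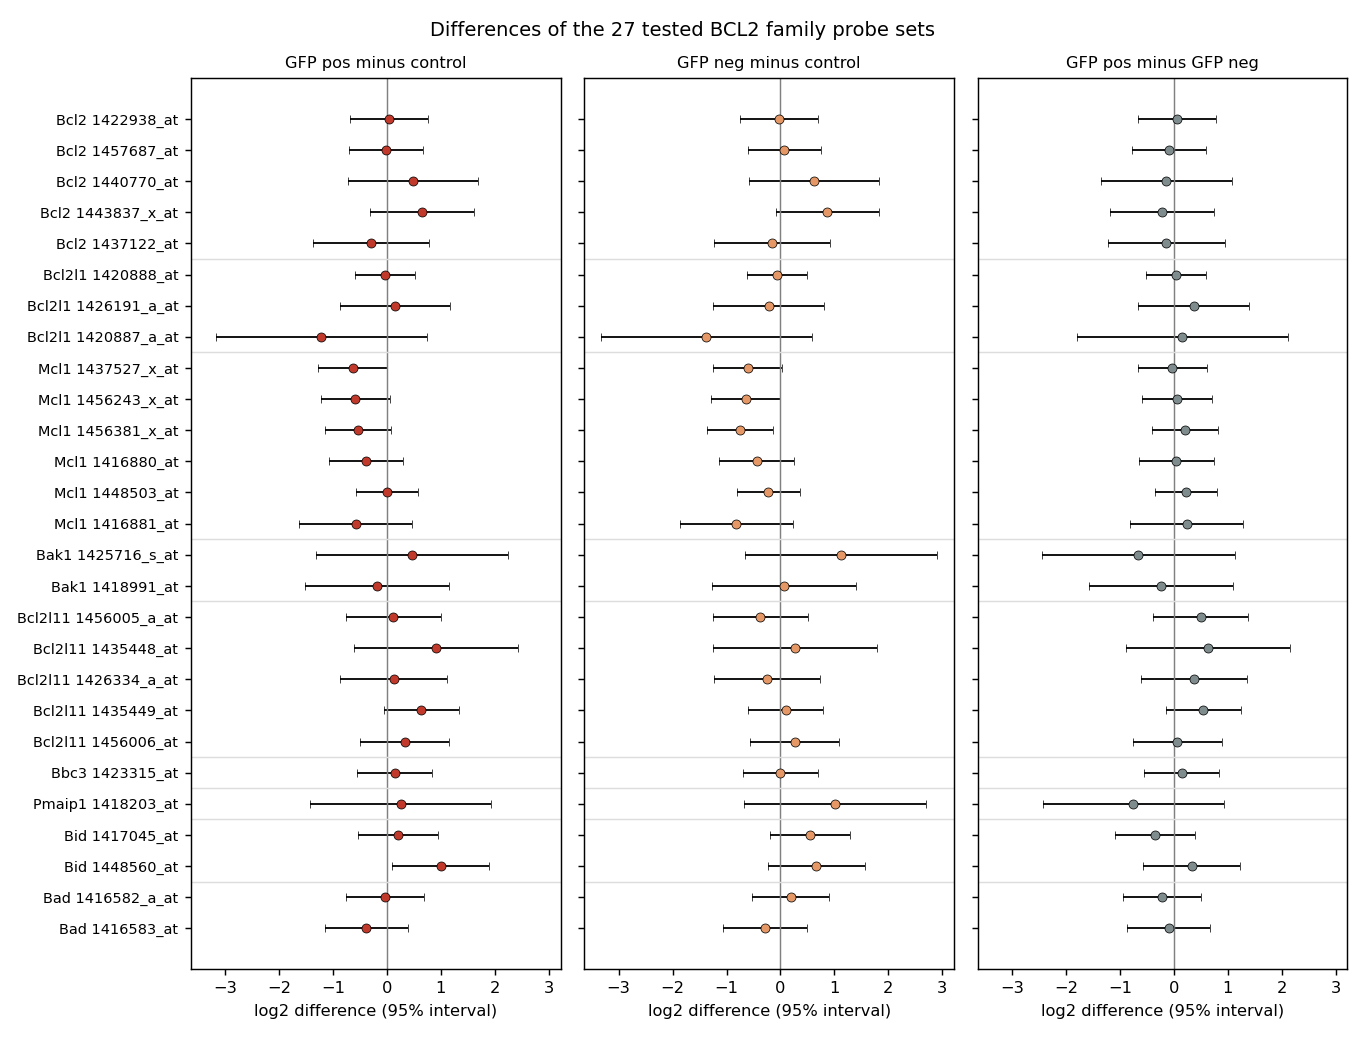
Log2 differences (horizontal axes) with 95% intervals of limma for the 27 tested BCL2 family probe sets, grouped by gene, in dnMPL GFP pos minus control, dnMPL GFP neg minus control and dnMPL GFP pos minus dnMPL GFP neg (3 arrays per group). The intervals are not adjusted for the number of probe sets, and the interval of Bid 1448560_at in the first panel (point estimate 1.00) lies wholly above 0, as that of Mcl1 1456381_x_at in the second lies wholly below 0 (point estimate -0.75).

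Among the BH3-only genes, Bcl2l11 encodes BIM, which is released when growth factor signals fall. Its brightest probe set, 1456005_a_at, stood at 8.72, 8.35 and 8.80 in dnMPL GFP pos cells, 7.87, 8.12 and 8.40 in dnMPL GFP neg cells and 8.50, 9.26 and 7.76 in control cells. The controls spanned the values of both dnMPL groups. It differed by 0.12 ± 0.39 in dnMPL GFP pos and by -0.37 ± 0.39 in dnMPL GFP neg cells against control, and by 0.49 ± 0.39 between the fractions. Without control 3 the first of these was -0.25 and the second -0.75, so the sign in dnMPL GFP pos cells rested on that array.

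With all arrays, the point estimates of the 5 Bcl2l11 probe sets were above 0 in dnMPL GFP pos cells, both against control (0.12 to 0.91) and against dnMPL GFP neg cells (0.062 to 0.64), but none passed (limma adjusted p at least 0.847 against control and 1.00 between the fractions). For 1456005_a_at, 1426334_a_at and 1456006_at the estimates against control rested on single arrays. The brightness filter used the mean over all arrays. The control means of 1435449_at (3.98) and 1456006_at (3.84) lay below its limit of 4.03. Both thus entered the test through their higher dnMPL arrays, which favours estimates above control in this tally. Probe set 1435449_at was separated from control, at 5.12, 4.66 and 4.10 in dnMPL GFP pos cells, 4.19, 3.93 and 4.12 in dnMPL GFP neg cells and 4.02, 3.93 and 4.00 in control cells. Its lowest dnMPL GFP pos value lay 0.081 above the highest control, close to the brightness limit of 4.03, and the difference of 0.64 ± 0.31 became 0.39 without dnMPL GFP pos 1. Probe set 1435448_at was at 6.73, 5.39 and 7.49 in dnMPL GFP pos cells, 5.98, 4.69 and 7.02 in dnMPL GFP neg cells and 5.19, 6.29 and 5.41 in control cells, with overlap throughout. Probe set 1426334_a_at was at 5.95, 4.18 and 4.97 in dnMPL GFP pos cells, 5.00, 4.26 and 4.71 in dnMPL GFP neg cells and 5.09, 4.66 and 4.97 in control cells. Its dnMPL GFP pos mean was above those of the other groups only through dnMPL GFP pos 1. The joint difference was -0.060 with that array and -0.29 without it. Just above the limit lay 1456006_at, with a mean of 4.04, and below it Bid 1447873_x_at, with 3.20. The values of 1456006_at were 3.64, 4.03 and 4.83 in dnMPL GFP pos, 3.73, 4.56 and 4.03 in dnMPL GFP neg and 3.71, 3.99 and 3.80 in control cells. Without dnMPL GFP pos 3, its dnMPL GFP pos level was close to control and below that of dnMPL GFP neg cells.

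Bid, whose product links death receptors to mitochondria, had the member probe set with the highest point estimate in dnMPL GFP pos cells. Probe set 1448560_at stood at 5.03, 5.90 and 6.30 in dnMPL GFP pos cells, 5.69, 5.73 and 4.81 in dnMPL GFP neg cells and 4.66, 4.58 and 4.99 in control cells. All dnMPL GFP pos arrays were above the controls, by 0.044 at the closest, and dnMPL GFP neg 3 lay among the controls. The difference was 1.00 ± 0.40 in dnMPL GFP pos cells, 0.67 ± 0.40 in dnMPL GFP neg cells and 0.83 ± 0.35 jointly (limma adjusted p = 0.828, 0.930 and 0.730). The brighter Bid probe set, 1417045_at, was at 5.89, 6.04 and 6.26 in dnMPL GFP pos cells, 6.13, 6.87 and 6.24 in dnMPL GFP neg cells and 6.13, 6.10 and 5.37 in control cells. It overlapped, with a joint difference of 0.37 ± 0.29 that was 0.12 without control 3.

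Bbc3 and Pmaip1, both direct p53 targets, had 1 probe set each. Bbc3 was at 4.98, 5.61 and 5.23 in dnMPL GFP pos cells, 4.77, 5.10 and 5.50 in dnMPL GFP neg cells and 5.10, 4.92 and 5.37 in control cells. Its groups lay over each other, with a joint difference of 0.069 ± 0.27 and an interval of 0.691 to 1.59 times. It was 0.19 without control 3 and -0.036 without control 2. Pmaip1 spread over several log2 units, at 3.95, 5.90 and 5.63 in dnMPL GFP pos cells, 6.37, 5.74 and 5.63 in dnMPL GFP neg cells and 6.49, 4.72 and 3.50 in control cells. Its joint difference of 0.63 ± 0.65 became -0.068 without control 3 and 1.43 without control 1, so no direction can be given.

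Bad, whose product is held inactive by AKT phosphorylation, had 2 probe sets that disagreed in level pattern. Probe set 1416582_a_at was at 7.53, 7.25 and 8.31 in dnMPL GFP pos cells, 7.87, 7.95 and 7.93 in dnMPL GFP neg cells and 7.78, 7.56 and 7.85 in control cells. The dnMPL GFP neg arrays were all above the controls, by 0.019 at the closest, with a difference of 0.19 ± 0.32 that was 0.10 without control 2, and the dnMPL GFP pos arrays lay on either side. Probe set 1416583_at was at 6.20, 6.15 and 7.04 in dnMPL GFP pos cells, 6.27, 6.61 and 6.80 in dnMPL GFP neg cells and 6.81, 6.52 and 7.21 in control cells. It overlapped throughout. The joint difference of the first was 0.079 ± 0.28, and it was 0.14 without control 3 and -0.075 without dnMPL GFP pos 3. That of the second was -0.33 ± 0.30 (-0.15 without control 3).

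**Figure D4:**
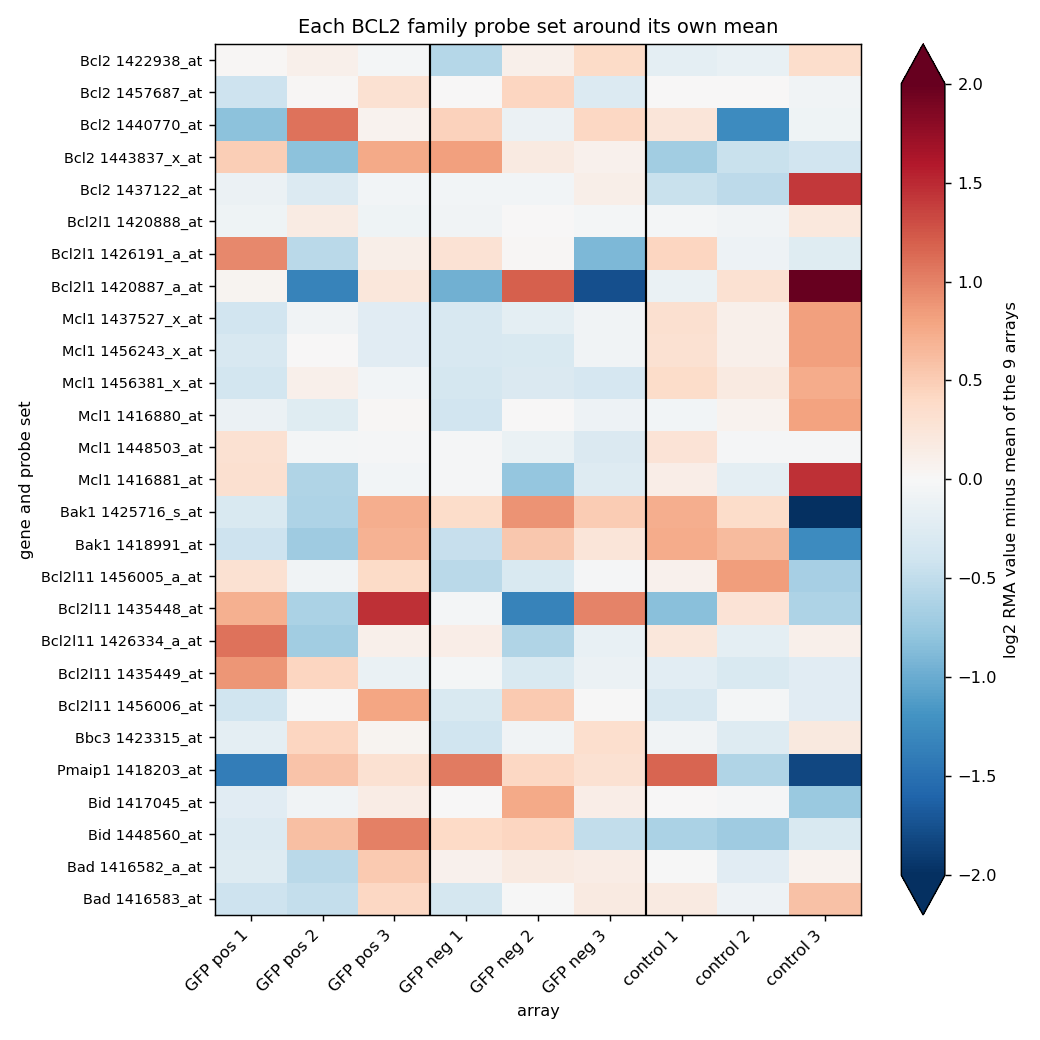
Log2 RMA value of each of the 27 tested BCL2 family probe sets (rows) on each array (columns) minus its mean over the 9 arrays, with red above and blue below the mean and colours held at 2 and -2. Control 3 is the highest array for 9 probe sets and the lowest for 5, and the rows of the Mcl1 x_at sets are above their mean on all 3 controls.

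The wider death machinery was taken from 4 lists, with each gene read by its brightest probe set. None of their genes passed limma at an adjusted p under 0.05 in any comparison. For both dnMPL fractions jointly against control, 46.4% of the 12398 tested genes had a point estimate above 0, with a median of -0.033. Of 9 tested other BCL2 family genes, 1 was above 0 and 8 below, with a median of -0.12. That tally rested on control 3, since without it 6 were above and 3 below, with a median of 0.048. Bnip3, a mitochondrial BH3-like protein induced by hypoxia, stood at 5.92, 4.17 and 6.42 in dnMPL GFP pos cells, 6.50, 6.32 and 5.26 in dnMPL GFP neg cells and 6.39, 7.28 and 7.75 in control cells. It differed by -1.38 ± 0.54 (limma adjusted p = 0.713), and dnMPL GFP pos 3 and dnMPL GFP neg 1 lay above the lowest control. Single controls carried the next 3 genes. Bcl2l13 differed by 1.26 ± 0.75 (0.48 without control 1 and 2.02 without control 2), Bcl2l14 by -0.54 ± 0.37 (-0.095 without control 2) and Bcl2l2 by -0.43 ± 0.72 (0.38 without control 3 and -1.05 without control 1).

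Of the 18 tested genes of the mitochondrial route, which include the apoptosome, caspases and IAP proteins, 9 were above and 9 below control jointly, with a median of -0.064 (-0.12 to 0.12 with each array left out in turn). Htra2 and Diablo, which both release caspases from inhibition once they leave mitochondria, pointed in opposite directions. Htra2 was at 9.10, 7.76 and 8.78 in dnMPL GFP pos cells, 8.32, 9.24 and 8.32 in dnMPL GFP neg cells and 7.06, 8.37 and 7.02 in control cells. Diablo was at 7.24, 6.61 and 7.60 in dnMPL GFP pos cells, 7.42, 7.24 and 8.27 in dnMPL GFP neg cells and 8.68, 7.57 and 8.44 in control cells. Both genes overlapped between the groups, and neither the joint difference of Htra2 (1.10 ± 0.43, limma adjusted p = 0.713) nor that of Diablo (-0.83 ± 0.37, limma adjusted p = 0.750) passed. Vdac2, the channel that holds BAK at the outer membrane, differed by 0.72 ± 0.33 (0.34 without control 3), and Parp1, a caspase substrate, by 0.64 ± 0.30 (0.41 without it).

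In the death receptor route 3 of 8 tested genes were above and 5 below control jointly, with a median of -0.35 (2 and 6 without control 1 or without control 3, with medians of -0.24 and -0.26). Tnfsf10, which encodes the death ligand TRAIL, stood at 6.38, 6.89 and 7.62 in dnMPL GFP pos cells, 6.52, 7.62 and 8.14 in dnMPL GFP neg cells and 8.61, 8.15 and 7.77 in control cells. All dnMPL GFP pos arrays were below the controls and dnMPL GFP neg 3 was not, with a joint difference of -0.98 ± 0.42 (limma adjusted p = 0.735). Its receptor Tnfrsf10b differed by -0.79 ± 0.47 (-0.12 without control 1), the adaptor Traf2 by -0.47 ± 0.28 (-0.18 without control 3) and the TNF receptor Tnfrsf1a by 0.51 ± 0.33.

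Among 23 tested regulators of BCL2 family proteins and transcripts, 11 were above and 12 below control jointly, with a median of -0.028 (-0.064 to 0.052 with each array left out in turn). Huwe1, a ubiquitin ligase that marks MCL1 for destruction, was at 8.97, 8.76 and 8.73 in dnMPL GFP pos cells, 8.19, 8.34 and 8.14 in dnMPL GFP neg cells and 9.16, 8.98 and 8.93 in control cells. Its dnMPL GFP neg arrays were the lowest 3, dnMPL GFP pos minus dnMPL GFP neg was 0.60 ± 0.25 (limma adjusted p = 1.00), and the joint difference was -0.50 ± 0.21 (limma adjusted p = 0.738). Foxo3, a FOXO factor needed by mouse hematopoietic stem cells, stood at 9.51, 8.80 and 10.25 in dnMPL GFP pos cells, 9.98, 10.15 and 9.51 in dnMPL GFP neg cells and 10.28, 10.44 and 10.21 in control cells, with a joint difference of -0.61 ± 0.33 (limma adjusted p = 0.808). Fbxw7, another ligase for MCL1, and Ddit3, the stress factor CHOP, differed by -0.82 ± 0.45 and -0.33 ± 0.22 (Ddit3 by -0.21 without control 3).

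To place the patterns, the tested genes most like 4 members over the 9 arrays were ranked by Pearson's r, as a description. For Mcl1 (1437527_x_at) they were Fkbp3, Rasgrf2 and Matk (r = 0.959, 0.948 and 0.947), with values of 0.950, 0.836 and 0.853 without control 3. For Bcl2 (1422938_at) they were Wwc1, Traf3ip2 and Gm45914 (r = 0.948, 0.937 and 0.931). For Bcl2l11 (1456005_a_at) they were Sox6, Pigk and Helq (r = 0.945, 0.943 and 0.938), and for the nearly flat Bcl2l1 (1420888_at) Nme5, 1700028E10Rik and 4930451I11Rik (r = 0.983, 0.977 and 0.976). All arrays share 1 normalization, and these are the highest values among 12398 genes.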

How the data were processed

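The values deposited by the authors were log2 expression values, 1 array per sample, and RMA is the tool listed for them (per the submitters' processing notes, with no version). RMA subtracts background, equalizes array distributions and condenses the probes of a set by median polish, which can give several arrays 1 value. Such ties were in 11 of the 29 member probe sets and in 19004 of the 45037 probe sets that are not control sets. Scanner files were not used here. From 45037 probe sets (64 control sets removed), the 27022 whose mean exceeded the 40th percentile (4.03) entered a limma fit (version 3.58.1, R 4.3.3; lmFit, then eBayes) of the 3 groups on 9 arrays. Calls needed a Benjamini-Hochberg adjusted p under 0.05. The joint comparison is the mean of both dnMPL groups minus control. Of the probe sets, 34945 are annotated with 1 gene, 932 with several and 9160 with none, and 34741 were matched to current RefSeq symbols. A list gene was read by its brightest probe set.

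Members and lists were chosen with earlier results of these data known. The rule for named genes takes all members, the 4 genes of each list with the smallest p in the joint comparison, the 3 genes most like each of 4 members and the 3 genes with the smallest p per comparison. Values of its marker and whole-array genes are not given, and Kit, which defines the gate, and Ms4a1, for its level in dnMPL GFP pos cells, were added after values were seen. The fit was tested on simulated data with the spread of each probe set within groups. Values were drawn as independent and normal, so the outlying arrays were not reproduced. In each comparison 100 of the 27022 probe sets were changed by each size. At an adjusted p under 0.05 it found 0 to 3% of the changes of 1 log2 unit, depending on the comparison. Of the changes of 2 log2 units it found 19 to 34%, so in that setting most changes of these sizes were missed. Exact permutation tests and figures were made in Python 3.11.15 with scipy 1.17.1 and matplotlib 3.10.9. Alternatives covered filter, normalization, unit, variance prior, weights and arrays left out.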

Additional observations from a re-analysis of the deposited data

How the results depend on the processing

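No alternative gave a call. Limma called 0 probe sets at an adjusted p under 0.05, members and list genes included, in each comparison without the brightness filter, at the 60th percentile, with 1 probe set or the mean of the probe sets per gene, after a further quantile normalization or median centring, with another variance prior, with array weights, on the compared arrays alone, and without any 1 array or without control 3 and dnMPL GFP pos 2 together. With the replicate number as a replicate block it also called 0, and same-numbered arrays' deviations from their group means correlated at -0.252 to 0.0905, with 0 of 9 arrays closest to their own number in both other groups, so the numbers were not taken as pairs. The smallest adjusted p reached was 0.0664, for the joint comparison with array weights. Counts at an unadjusted p under 0.05 moved most between the dnMPL fractions, 1747 without dnMPL GFP pos 3 and 1641 with array weights against 733. With array weights dnMPL GFP neg against control had 2197 against 1434, and without the filter, where more are tested, 2255 (1235 between the fractions). With fewer tested, at 1 probe set or 1 mean per gene, there were 805 and 783, 691 and 707, 316 and 259, and 899 and 886 in the 4 comparisons, and 463 between the fractions at the 60th percentile.

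Over 1969 member values under these alternatives, 149 changed sign and 53 moved by over 1 SE. Of the members whose groups did not overlap or whose unadjusted p was under 0.05, 1 changed sign: Bad in dnMPL GFP neg cells was -0.047 by the mean of its probe sets, which takes in the second Bad probe set. The Mcl1 x_at sets stayed below control in each setting run, between -0.78 and -0.41 (1437527_x_at), -0.77 and -0.41 (1456243_x_at) and -0.77 and -0.49 (1456381_x_at) jointly, with the smallest sizes without control 3. Mcl1 by the mean of its 6 probe sets was -0.52 jointly. The cause of these movements was not tested. The 3 arrays per group limit precision.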
